A study of Mus musculus with 21 samples.

Results

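The genes described here are the 10 that encode the core of the major histocompatibility complex (MHC) class I antigen presentation pathway in the mouse: the heavy chains H2-K1 and H2-D1, the light chain B2m, the peptide transporter subunits Tap1 and Tap2, the loading factor Tapbp, the immunoproteasome subunits Psmb8, Psmb9 and Psmb10, and the transcriptional regulator Nlrc5. They were taken by name, and all 10 are held by each of the 4 deposited expression tables, among 14698 genes in any table and 9973 genes in all 4. The samples are 21 RNA-seq libraries, in 7 groups of 3, of Ba/F3 cells, a mouse interleukin-3 dependent pro-B cell line, made to express JAK2-V617F, the activated kinase of myeloproliferative neoplasms. The study asked how JAK2 signalling behaves during and after exposure to ruxolitinib, a type I JAK inhibitor that binds the active kinase, and CHZ868, a type II inhibitor that binds the inactive kinase.

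All groups carry JAK2-V617F. The continuous groups (DMSO-treated; ruxolitinib-treated; CHZ868-treated) were exposed for 6 h to vehicle or to the inhibitor at 1 μM. Ruxo-wash and CHZ868-wash cells were exposed to 1 μM inhibitor for 1 h, washed in PBS and kept without inhibitor for 6 h, and the labels give each of these groups a DMSO-wash group of its own. No label says that the 3 libraries of a group came from separate cultures, so the tests below measure the spread between these libraries, which may be technical. Ba/F3 cells are a single transformed line, in which JAK2-V617F stands in for the cytokine, and the class I pathway was measured here as transcripts only.

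Class I molecules carry peptides of a cell's own proteins to its surface, where cytotoxic T cells read them. Peptides are cut by the proteasome, in which the immunosubunits Psmb8, Psmb9 and Psmb10 can replace the constitutive subunits Psmb5, Psmb6 and Psmb7, and are pumped into the endoplasmic reticulum by the Tap1 and Tap2 pair, where tapasin (Tapbp) holds the transporter against empty complexes of a heavy chain and B2m. The genes are known to respond to interferons through JAK kinases and IRF factors, and Nlrc5 is known to switch on class I genes through promoter elements called the X and Y boxes.

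On GRCm38, 7 of the 10 genes lie on chromosome 17, within or beside the MHC. Psmb9 (chr17:34181987-34187764, minus strand), Tap1 (chr17:34187553-34197225, plus strand), Psmb8 (chr17:34197721-34201454, plus strand) and Tap2 (chr17:34203527-34216321, plus strand) stand in a row over 34335 bases. H2-K1 (chr17:33996017-34000347, minus strand), H2-D1 (chr17:35262730-35267499, plus strand) and Tapbp (chr17:33915899-33929292, plus strand) lie on either side of them. Psmb10 (chr8:105935735-105938444, minus strand) and Nlrc5 (chr8:94434356-94527272, plus strand) are on chromosome 8, and B2m (chr2:122147686-122153083, plus strand) is on chromosome 2.

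The promoters of the surface complex are shown because its 3 genes hold the X2 and Y boxes at a fixed distance, which the other 5 members with a promoter in the table do not, and because these 3 genes did not move together. Each runs from 250 bases before to 50 bases after a RefSeq transcription start on GRCm38.p6. Capitals mark, in this order from the left, the NF-kB-type motif (GGGGATTCC) and the reverse complement of an IRF-type motif (GAANNGAAA) in the heavy chains, or an ISRE-type motif (GAAANNGAA) in B2m, followed in all 3 by the X2-type motif (TGACG) and the Y box (ATTGG).
H2-K1, chr17:34000298-34000597, minus strand: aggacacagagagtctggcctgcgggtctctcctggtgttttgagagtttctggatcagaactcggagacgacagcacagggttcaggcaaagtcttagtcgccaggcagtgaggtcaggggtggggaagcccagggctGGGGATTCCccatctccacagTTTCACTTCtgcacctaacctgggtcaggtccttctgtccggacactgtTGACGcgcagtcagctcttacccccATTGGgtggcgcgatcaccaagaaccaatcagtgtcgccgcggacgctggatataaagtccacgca
H2-D1, chr17:35262844-35263143, plus strand: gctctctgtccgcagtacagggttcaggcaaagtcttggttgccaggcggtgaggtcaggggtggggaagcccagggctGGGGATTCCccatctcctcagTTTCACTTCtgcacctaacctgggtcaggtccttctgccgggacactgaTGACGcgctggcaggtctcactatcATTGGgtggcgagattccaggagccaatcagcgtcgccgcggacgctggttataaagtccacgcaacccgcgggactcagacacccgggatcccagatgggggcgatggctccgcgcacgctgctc
B2m, chr2:122147437-122147736, plus strand: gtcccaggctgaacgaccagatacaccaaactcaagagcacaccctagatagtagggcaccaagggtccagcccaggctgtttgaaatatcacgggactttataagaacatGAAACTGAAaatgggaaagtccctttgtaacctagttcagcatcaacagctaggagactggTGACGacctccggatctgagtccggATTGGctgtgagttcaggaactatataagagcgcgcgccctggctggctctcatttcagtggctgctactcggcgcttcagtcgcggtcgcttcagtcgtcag

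In all 3 promoters exactly 20 bases separate TGACG from ATTGG on the transcribed strand. A TGACG followed by an ATTGG after 15 to 30 bases was found in 101 of 32544 distinct RefSeq promoters of this length (0.31%), and in none of the other 5 members with a promoter in the table. H2-K1 has a second window with the same motifs, 14 bases further downstream. Over 239 aligned bases the first H2-K1 window and that of H2-D1 were 88.3% identical, and their longest identical run was 47 bases. Promoters were matched for 8 of the 10 genes, the exceptions being Tap2 and Nlrc5.

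The transporter and immunoproteasome promoters are shown for contrast with these 3. Searched on both strands, the GAS motif (TTCNNNGAA), the letters that STAT factors bind, was present only in that of Psmb8, where it is in capitals, and in 8.33% of all promoters. The windows of Tap1 and Psmb9 read largely the same stretch of DNA in opposite directions, and neither holds the NF-kB-type, IRF-type, ISRE-type or GAS motif.
Tap1, chr17:34187306-34187605, plus strand: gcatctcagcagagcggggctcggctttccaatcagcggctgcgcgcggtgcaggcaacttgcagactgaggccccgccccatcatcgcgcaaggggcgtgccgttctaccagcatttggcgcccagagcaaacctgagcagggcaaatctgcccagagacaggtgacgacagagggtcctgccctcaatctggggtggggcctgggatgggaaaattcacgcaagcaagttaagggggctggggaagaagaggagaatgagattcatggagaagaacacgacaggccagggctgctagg
Psmb8, chr17:34197945-34198244, plus strand: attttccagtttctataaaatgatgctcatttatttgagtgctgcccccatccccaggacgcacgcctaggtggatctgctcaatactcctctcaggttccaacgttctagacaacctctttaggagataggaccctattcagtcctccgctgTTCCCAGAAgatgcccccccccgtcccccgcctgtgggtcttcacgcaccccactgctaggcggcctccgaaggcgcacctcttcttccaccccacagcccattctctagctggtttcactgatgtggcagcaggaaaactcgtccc
The shares of all promoters that hold the other motifs on either strand were 7.57% for the IRF type, 8.53% for the ISRE type, 0.252% for the NF-kB type, 20.9% for TGACG and 37.4% for ATTGG. These matches describe letters in a window and say nothing of binding in these cells. The windows of Psmb8, Psmb9, Tapbp and H2-D1 lie wholly inside the gene as annotated. Sequence before the outermost annotated start of these genes was thus not searched, and a motif absent from a window may lie there.

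The deposited unit is log2 CPM, and whole reads could be recovered for 15 libraries, of 7880000 to 10670000 reads on listed genes, in which each member had from 358 to 34885 reads. The depth of the ruxo-wash libraries and their DMSO-wash libraries is unknown. Of 16 pro-B and interleukin-3 dependent cell markers, 6 are in the tables (Cd79a, Cd79b, Ptprc, Csf2rb, Csf2rb2 and Il3ra), while defining markers such as Pax5 and Rag1 are in none. Their summed level was 3350 to 3415 CPM in DMSO-treated, 2615 to 2873 CPM in CHZ868-treated and 2936 to 3468 CPM in ruxolitinib-treated cells. The sum was 1699 to 1739 CPM in CHZ868-wash and 1741 to 1924 CPM in its DMSO-wash. It was 330 to 358 CPM in ruxo-wash and 400 to 421 CPM in its DMSO-wash, lower without overlap. Levels are not comparable between experiments, and what these sums reflect was not tested. Of the 8 T and NK cell markers none is in any table, and of the 8 dendritic cell and macrophage markers only Csf1r is in the 6 h tables, at 2.701 to 12.04 CPM. The CHZ868 washout experiment holds 2 of those 8, summing to 12.28 to 20.26 CPM. The ruxolitinib washout experiment holds 5, summing to 29.74 to 40.90 CPM.

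Ruxolitinib-treated replicate 2 and DMSO-wash replicate 3 of the CHZ868 experiment stood apart from the other libraries of their groups. The summed mitochondrial transcripts were 36750 CPM in the first, against 16777 and 17052 CPM in the other 2 libraries, and 56436 CPM in the second, against 28611 and 22528 CPM (14 to 19 mitochondrial genes are listed, depending on the table). Both libraries differed from their group in the same members: relative to the mean of the other 2 libraries, B2m was higher by 0.50 and 0.52 log2 units, while the differences of H2-D1 were -0.89 and -0.73, of Psmb9 -0.85 and -0.83, and of Psmb10 -0.75 and -0.71. Nlrc5 differed by -0.14 and -0.11. The same sum was 51586 to 67641 CPM in CHZ868-treated and 12932 to 13566 CPM in DMSO-treated libraries, so it moved with CHZ868 treatment too. Its part in the results was not tested.

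**Figure D1:**
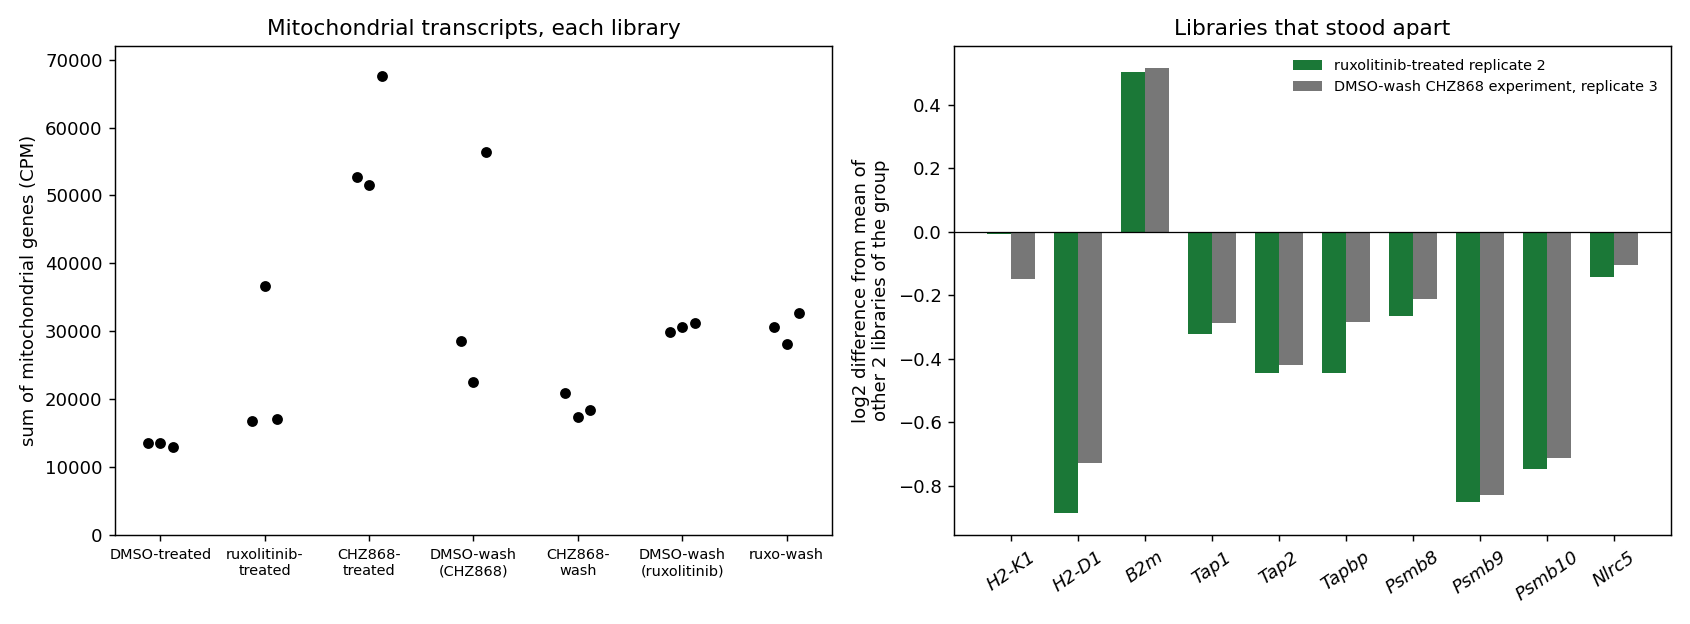
Left, the summed level of mitochondrial genes (CPM, linear axis) in each of the 21 libraries by group; right, bars of the log2 difference of ruxolitinib-treated replicate 2 and of DMSO-wash replicate 3 of the CHZ868 experiment from the mean of the other 2 libraries of its group, for the 10 genes. The 2 libraries lie above the others of their groups on the left, and on the right both show B2m about 0.5 log2 units higher and Psmb9 more than 0.8 log2 units lower.

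During 6 h of CHZ868 all 10 genes changed, 8 downward and 2 upward. Nlrc5 fell most, 4.61-fold, Tapbp and Psmb10 each fell 2.34-fold, and Psmb9, H2-D1, Tap2 and Tap1 fell 1.77-fold to 1.94-fold. Psmb8 fell 1.35-fold. The 2 genes that rose were B2m, 2.38-fold, and H2-K1, 1.53-fold. In the limma-trend fit over 11670 genes with Benjamini-Hochberg adjustment, the adjusted p of the members ran from 3.78e-11 to 2.09e-05. Across all genes of that fit, 26.8% passed at an adjusted p of 0.05 as higher and 26.4% as lower. The median difference of the 10 genes was -0.90 log2 units beside -0.01 for all genes tested. In bulk RNA, fewer cells of a kind and less RNA per cell cannot be told apart.

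Nlrc5, the regulator, was at 8.05, 8.06 and 8.10 log2 CPM in the DMSO-treated and at 5.64, 5.92 and 6.03 log2 CPM in the CHZ868-treated libraries. Every CHZ868-treated value lay at least 2 log2 units below every DMSO-treated one. The log2 difference was -2.21 ± 0.0866 (SE, n = 3 per group; limma-trend adjusted p = 3.78e-11). Reads on Nlrc5 fell from 2314 to 2725 per library to 454 to 523.

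The heavy chains moved apart. H2-K1 was at 7.22, 7.10 and 7.08 log2 CPM in DMSO-treated and at 7.65, 7.76 and 7.84 in CHZ868-treated libraries. H2-D1 was at 8.31, 8.38 and 8.22 log2 CPM in DMSO-treated and at 7.38, 7.46 and 7.32 in CHZ868-treated libraries. H2-D1 was therefore the higher of the pair in every DMSO-treated library and the lower in every CHZ868-treated library. The log2 differences were +0.62 ± 0.068 for H2-K1 (adjusted p = 2.56e-06) and -0.91 ± 0.0637 for H2-D1 (adjusted p = 1.72e-08; SE, n = 3 per group, limma-trend). Reads of the heavy chains can be shared: with at least 90% identity over at least 200 bases, H2-K1 transcripts had 8 near copies and H2-D1 transcripts 10 in the GRCm38 annotation, among them each other, and the reference strain is not that of Ba/F3 cells. How such reads were divided is not given in the sources used here, so the split between the heavy chains is uncertain.

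B2m, the light chain shared by the class I heavy chains, was at 10.26, 10.40 and 10.45 log2 CPM in DMSO-treated and at 11.76, 11.65 and 11.47 in CHZ868-treated libraries, with no overlap. It had no near copy in the annotation. The log2 difference was +1.25 ± 0.0754 (adjusted p = 3.61e-09; SE, n = 3 per group, limma-trend). Its direction held under every alternative run, but with quantile normalization the difference was 0.71 log2 units.

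The transport and loading genes fell together. Tap1 was at 9.16, 9.17 and 9.14 log2 CPM in DMSO-treated and at 8.27, 8.36 and 8.35 in CHZ868-treated libraries. Tap2 was at 8.86, 8.93 and 8.91 and at 7.96, 8.11 and 7.98 log2 CPM in the same groups. Tapbp, the tapasin gene, was at 8.25, 8.29 and 8.31 and at 6.9995, 7.10 and 7.06 log2 CPM. No group overlapped with the other for any of the 3 genes. The log2 differences were -0.82 ± 0.0537 for Tap1, -0.88 ± 0.0586 for Tap2 and -1.23 ± 0.0587 for Tapbp (SE, n = 3 per group). The log2 ratio of Tap1 to Tap2 within a library differed by only 0.06 between CHZ868-treated and DMSO-treated cells, and the groups overlapped.

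Among the immunoproteasome subunits, Psmb10, the counterpart of Psmb7, was at 6.94, 6.98 and 6.88 log2 CPM in DMSO-treated and at 5.88, 5.60 and 5.64 in CHZ868-treated libraries. Psmb9, the counterpart of Psmb6, was at 7.83, 7.91 and 7.75 and at 7.05, 6.91 and 6.67 log2 CPM. Psmb8, the counterpart of Psmb5, was at 8.10, 8.19 and 8.09 and at 7.67, 7.75 and 7.67 log2 CPM. All 3 were lower in every CHZ868-treated library. The log2 differences were -1.23 ± 0.0854, -0.96 ± 0.086 and -0.43 ± 0.0584 in that order (SE, n = 3 per group). Tap1 and Psmb9 share 212 exon bases on opposite strands, and Psmb8, Tap2, Tapbp and Nlrc5 share 78 to 904 exon bases with a non-coding gene on the other strand. Tapbp also shares 149 exon bases with the protein-coding gene Zbtb22 on the same strand, which counting by strand could not resolve. The library kit was strand-specific, but whether strand was used in counting is not given in the sources used here, so reads of these overlaps cannot be told apart.

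**Figure D2:**
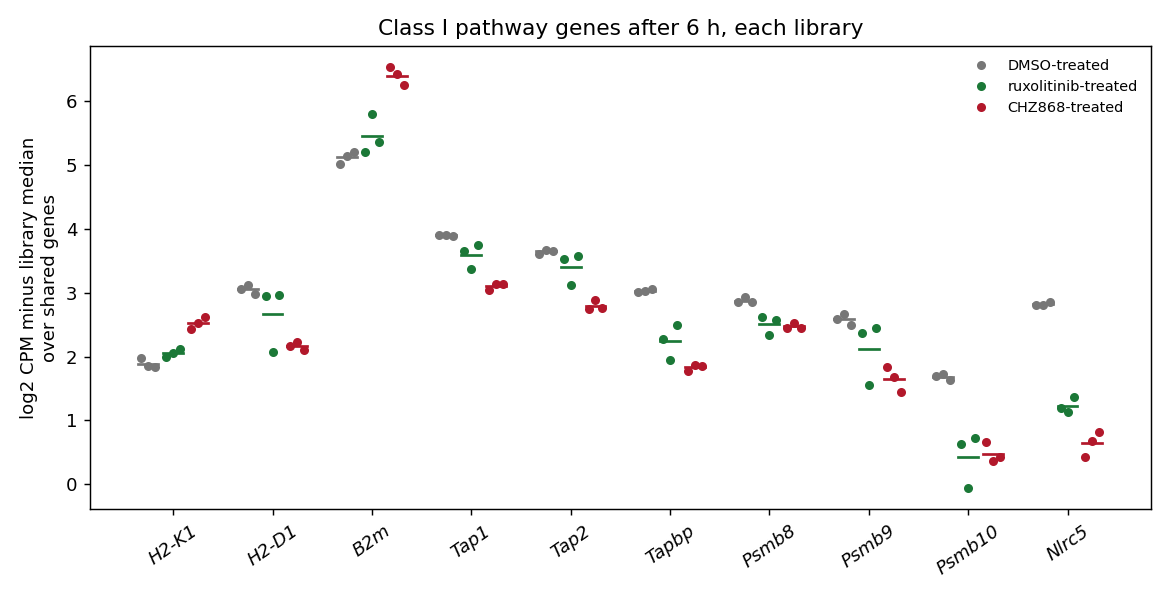
Log2 CPM minus the median of the library over 11624 shared genes (vertical axis, log2 units) for the 10 genes in each DMSO-treated, ruxolitinib-treated and CHZ868-treated library; points are libraries and short lines are group means. Nlrc5 sits near 2.8 in DMSO-treated cells and between 0.42 and 1.36 in both inhibitor groups, while B2m is highest in CHZ868-treated cells.

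Per kilobase of the longest coding transcript, B2m was the most abundant member in DMSO-treated cells, at 10.6 log2 CPM per kb. It was followed by Tap1 (7.59 ± 0.015, SD, n = 3), Psmb8 (7.42 ± 0.0515), Psmb9 (7.40 ± 0.0829), H2-D1 (7.23 ± 0.0799), Tap2 (7.12 ± 0.0354), Tapbp (6.75 ± 0.0274), Psmb10 (6.54 ± 0.0503), H2-K1 (6.44 ± 0.0756) and Nlrc5 (5.15 ± 0.0268) in log2 CPM per kb. Psmb8 and Psmb9 did not differ beyond their spread, the libraries of Psmb10 and H2-K1 overlapped, and H2-D1 and Tap2 lay close together. The order also depends on the transcript length chosen. In CHZ868-treated cells H2-K1 stood second at 7.05 and H2-D1 sixth at 6.32 log2 CPM per kb. Nlrc5 was the least abundant member per kb in every group.

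The same genes were next set against DMSO-treated cells after 6 h of ruxolitinib. Because the tables of these groups were normalized apart, values were taken relative to the library median of 11624 genes found in both, and no test was run. Nlrc5 and Psmb10 were past 1 log2 unit and did not overlap, with differences of -1.59 and -1.25, that is 3.01-fold and 2.38-fold lower. Of all genes, 2.83% met that rule as lower. None of the 10 genes overlapped between the groups: the 8 that were lower with CHZ868 were lower here, and B2m and H2-K1 were higher. Across all genes 20.1% were lower and 24.6% higher without overlap. The median difference of the members was -0.38 log2 units beside 0.04 for all genes. Both inhibitors were set against the same DMSO-treated libraries, so the comparisons are not independent.

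On the centred scale Nlrc5 was at 2.80, 2.80 and 2.85 log2 units in DMSO-treated and at 1.19, 1.14 and 1.36 in ruxolitinib-treated libraries. Psmb10 was at 1.69, 1.72 and 1.63 and at 0.64, -0.06 and 0.72. Tapbp was at 3.01, 3.03 and 3.06 and at 2.27, 1.95 and 2.50, a difference of -0.79. These 3 genes were clearly separated from DMSO-treated cells in all 3 libraries. The remaining differences were -0.46 for Psmb9, -0.39 for H2-D1, -0.36 for Psmb8, -0.31 for Tap1, -0.24 for Tap2, +0.33 for B2m and +0.17 for H2-K1.

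Several of these smaller differences rested on ruxolitinib-treated replicate 2. Without it the difference of H2-D1 was -0.10, of Psmb9 -0.17, of Tap2 -0.10, of Tap1 -0.20 and of B2m +0.16 log2 units. Those of Nlrc5, Psmb10, Tapbp and H2-K1 were -1.54, -1.00002, -0.65 and +0.17, so that Psmb10 was then at the limit of 1 log2 unit. All 10 genes were still without overlap, which leaving out a library could not have changed. With all libraries and upper quartile scaling, 9 were.

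Side by side at 1 μM and 6 h, ruxolitinib-treated cells were above CHZ868-treated cells without overlap for Tap2 (+0.61 log2 units), Nlrc5 (+0.59), Tap1 (+0.49) and Tapbp (+0.41), and below them for B2m (-0.95) and H2-K1 (-0.47). Across all genes 18.6% were higher and 16.7% lower without overlap. For Psmb8 (+0.04) and Psmb10 (-0.05) the groups overlapped, as they did for H2-D1 (+0.50) and Psmb9 (+0.47). None of the 10 was past 1 log2 unit. Most of these overlaps rested on ruxolitinib-treated replicate 2: without it 9 of the 10 genes, in place of 6, did not overlap. Leaving out a library can only remove overlaps, for any gene, and the shares above are for all libraries. Over all genes, those past 1 log2 unit without overlap went from 173 to 403. H2-D1 was then at +0.79, Psmb9 at +0.75, Psmb8 at +0.12, Psmb10 at +0.20 and B2m, past 1 log2 unit, at -1.11. The sign for Psmb10 also turned with upper quartile scaling (+0.0058). No test was run across the tables, and quantile normalization brought the B2m difference to -0.46.

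**Figure D3:**
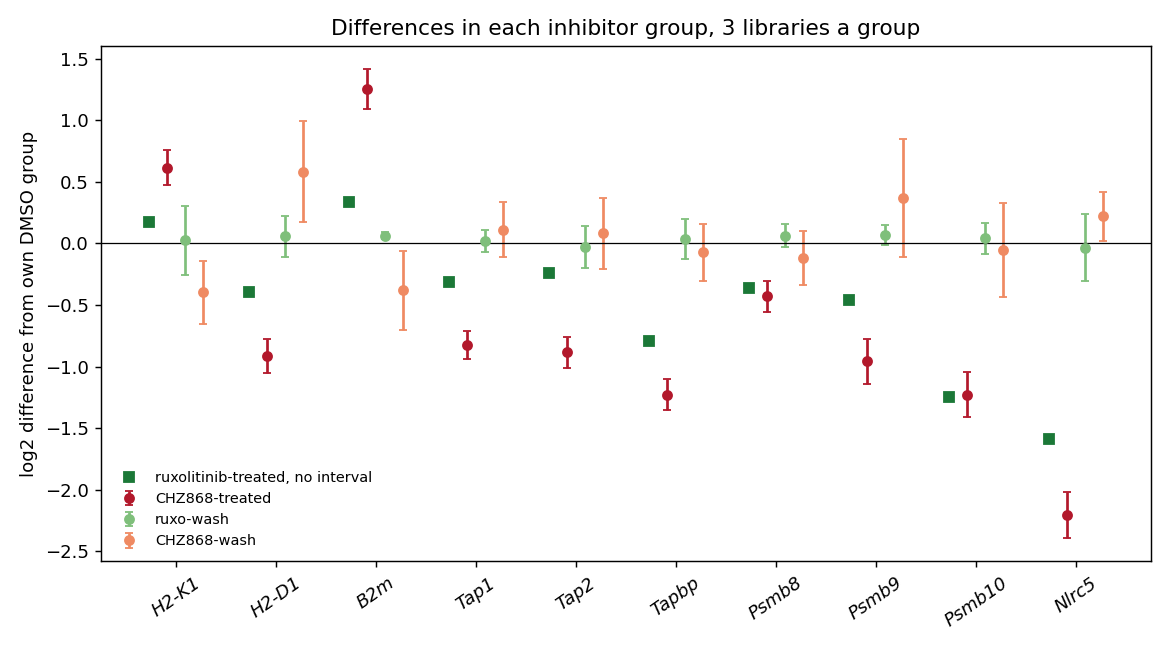
Log2 difference of each inhibitor group from its own DMSO group (vertical axis) for the 10 genes; circles carry 95% intervals from limma-trend, and squares for ruxolitinib-treated cells, set across tables, have none. CHZ868-treated cells run from -2.21 (Nlrc5) to +1.25 (B2m), ruxolitinib-treated cells from -1.59 to +0.33, and both washout groups lie between -0.40 and +0.58.

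Ratios within a library do not depend on scaling between libraries. The ratios were chosen after the values were seen. Relative to Psmb7, Psmb10 was lower in both inhibitor groups than in DMSO-treated cells (log2 differences of -1.24 with CHZ868 and -1.002 with ruxolitinib), on means of -0.72 ± 0.141, -0.48 ± 0.170 and 0.53 ± 0.0714 (SD, n = 3). Relative to Psmb6, Psmb9 differed by -0.81 and -0.35 log2 units, and relative to Psmb5, Psmb8 differed by -0.70 and -0.35. The Psmb8 to Psmb5 ratio was 5.14 ± 0.211 in DMSO-treated and 4.44 ± 0.356 in CHZ868-treated cells (SD, n = 3). Psmb5 was thus counted far below Psmb8, and this ratio had the widest spread of the 3 in each of these groups. In DMSO-wash of the ruxolitinib experiment the same ratio was lower, at 3.46 ± 0.0668 (SD, n = 3). Whether all reads of Psmb5 were counted was not tested. Any difference of Psmb5 itself, given below, is part of this ratio. With CHZ868 none of the 3 ratios overlapped with DMSO-treated cells, and with ruxolitinib that of Psmb8 to Psmb5 did. The two-sided exact permutation p was 0.1 for each ratio without overlap, the smallest that 3 against 3 libraries can give. Without ruxolitinib-treated replicate 2 the ruxolitinib differences were -0.91, -0.23 and -0.25.

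The ratio of H2-D1 to H2-K1 differed by -1.53 log2 units, 2.89-fold lower, between CHZ868-treated and DMSO-treated cells, and by -0.56 log2 units in ruxolitinib-treated cells. The latter was -0.27 without replicate 2. The ratio of H2-D1 to B2m was 4.49-fold lower with CHZ868. Neither pair overlapped between groups (two-sided exact permutation p = 0.1 for both, again the smallest possible).

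**Figure D4:**
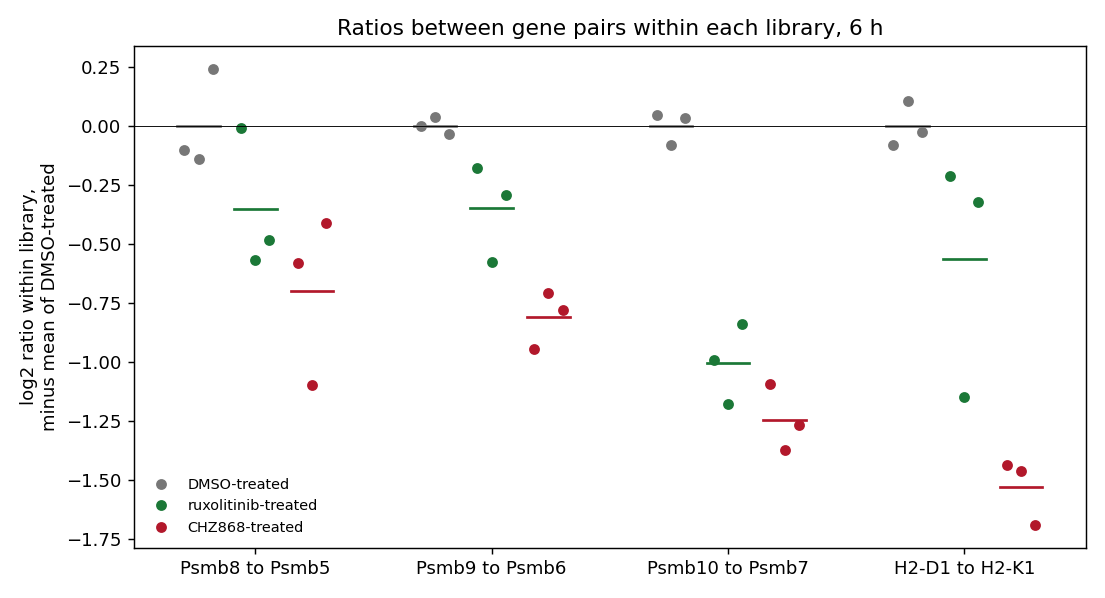
Log2 ratio within each library of 3 immunoproteasome subunits to their constitutive counterparts and of H2-D1 to H2-K1, minus the mean of DMSO-treated libraries (vertical axis); points are libraries, lines are group means. All CHZ868-treated points lie below the DMSO-treated ones, with mean differences of -1.24 for Psmb10 to Psmb7 and -1.53 for H2-D1 to H2-K1.

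After washout no member passed the test. In CHZ868-wash against its DMSO-wash, 0 of the 10 genes were called by limma-trend at an adjusted p of 0.05, and 4 had an unadjusted p under 0.05; 4.02% of 11355 genes were called. H2-D1 was at 8.51, 8.49 and 8.47 log2 CPM in CHZ868-wash and at 7.92, 8.39 and 7.42 in DMSO-wash libraries, a difference of +0.58 ± 0.186 (SE, n = 3 per group; limma-trend adjusted p = 0.0935). H2-K1 was at 7.01, 7.39 and 7.41 and at 7.72, 7.72 and 7.57 log2 CPM, a difference of -0.40 ± 0.114 (adjusted p = 0.0715). The groups did not overlap for these 2 genes, for B2m (-0.38 ± 0.145, adjusted p = 0.142) or for Nlrc5 (+0.22 ± 0.0905, adjusted p = 0.167). Of all genes in the table, 31.0% did not overlap. The direction of H2-K1, H2-D1, B2m and Nlrc5 was opposite to that under continuous CHZ868. The mitochondrial sum was lower here too without overlap, at 17457 to 20955 CPM in CHZ868-wash against 22528 to 56436 CPM in its DMSO-wash, and so also moved the opposite way to that under continuous CHZ868. Its part in these differences was not tested.

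These values rest on the DMSO-wash libraries. When replicate 3 of DMSO-wash in the CHZ868 experiment was left out, 3 genes were called: H2-K1 (-0.45, adjusted p = 0.0103), H2-D1 (+0.34, adjusted p = 0.0392) and Psmb10 (-0.29, adjusted p = 0.0346). B2m was then at -0.21 and Psmb9 at +0.09, closer to 0 than with all libraries (-0.38 and +0.37). Without its replicate 2, H2-D1 (+0.82, adjusted p = 0.00587), B2m (-0.52, adjusted p = 0.0262) and Psmb9 (+0.64, adjusted p = 0.0228) were called by the same limma-trend fit. Only H2-D1 was called under both. Over all genes 1426 were called without replicate 3 and 1298 without replicate 2, beside 457 of 11355 with all libraries. With all libraries the groups overlapped for Tap1, Tap2, Tapbp, Psmb8, Psmb9 and Psmb10.

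In ruxo-wash against its DMSO-wash, 0 of the 10 genes were called by limma-trend and 1, B2m, had an unadjusted p under 0.05, where 0.0229% of 13085 genes were called. The differences ran from -0.03 (Nlrc5) to +0.07 (Psmb9), and no 95% interval reached beyond 0.31 log2 units in size. Nlrc5 was at 5.43, 5.54 and 5.17 log2 CPM in ruxo-wash and at 5.47, 5.29 and 5.50 in DMSO-wash libraries. B2m was at 11.49, 11.48 and 11.49 and at 11.42, 11.42 and 11.43 log2 CPM, a difference of +0.06 ± 0.0124 (SE, n = 3 per group; limma-trend adjusted p = 0.362). B2m and Psmb9 did not overlap between the groups, beside 12.9% of all genes.

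**Figure D5:**
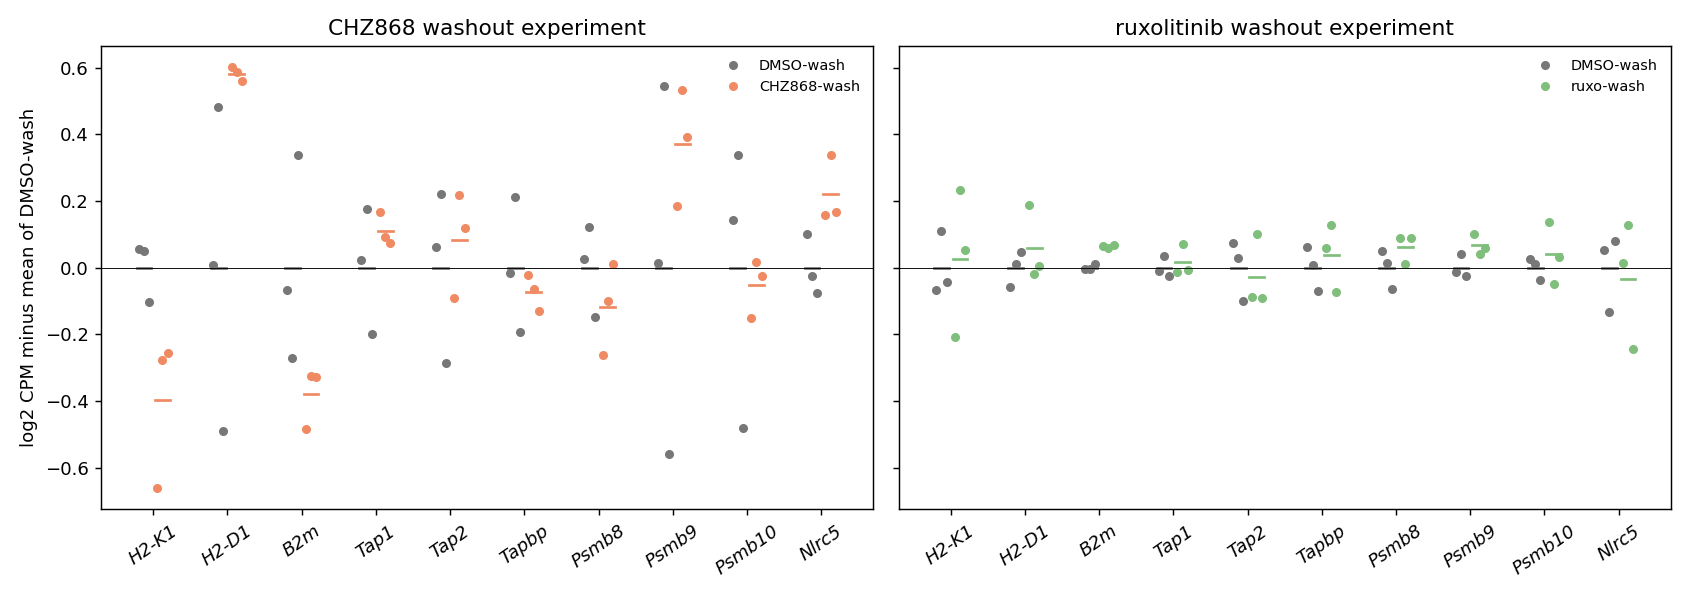
Log2 CPM of the 10 genes minus the mean of the DMSO-wash group of the same experiment (vertical axis) in the CHZ868 (left) and ruxolitinib (right) washout experiments; points are libraries, short lines are group means. Points of the ruxolitinib experiment lie within 0.3 log2 units of 0, while DMSO-wash libraries of the CHZ868 experiment spread over more than 1 log2 unit for Psmb9.

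Whether the effects of the washouts differed was tested over the 12 washout libraries and 10078 genes. By limma-trend 0 of the 10 genes were called, 3 had an unadjusted p under 0.05 (B2m, H2-K1 and H2-D1), and 1.90% of all genes were called. The largest differences, ruxolitinib minus CHZ868, were -0.52 ± 0.237 for H2-D1 (adjusted p = 0.253), +0.44 ± 0.167 for B2m (adjusted p = 0.170) and +0.42 ± 0.171 for H2-K1 (adjusted p = 0.200; SE over 12 libraries, limma-trend). When replicate 2 of DMSO-wash in the CHZ868 experiment was left out, H2-D1 (-0.76, adjusted p = 0.0178) and B2m (+0.58, adjusted p = 0.0268) were called by limma-trend. That fit called 628 genes, beside 191 of 10078 with all libraries. Without replicate 3, which stood apart, H2-D1 was at -0.28, B2m at +0.27 and H2-K1 at +0.48, and none was called, where 530 genes were.

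The effect of continuous CHZ868 differed from the effect after its washout for all 10 genes (limma-trend over 12 libraries and 11175 genes). It was more negative for 8, from -0.31 for Psmb8 (adjusted p = 0.0386) to -2.43 ± 0.132 for Nlrc5 (adjusted p = 5.52e-10), and more positive for B2m (+1.63 ± 0.179, adjusted p = 2.23e-06) and H2-K1 (+1.01 ± 0.139, adjusted p = 2.16e-05). Across all genes 23.2% were called as more positive and 23.8% as more negative. Psmb8 lost the call in 9 of the 12 fits that left out 1 library, with adjusted p up to 0.117 (without CHZ868-wash replicate 3). With quantile normalization the difference of B2m was +0.87. The effects come from separate experiments with separate DMSO groups and differ in exposure, 6 h against 1 h, as well as in washing.

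The neighbours of these genes in the pathway were described by lists taken by function, whose counts with CHZ868 stand beside 26.8% of all genes called higher and 26.4% called lower. Of 26 other class I heavy chains, 9 are in the 6 h table, and with CHZ868 8 fell and 1 rose (median -0.90 log2 units beside -0.01 for all genes tested). H2-T24 (-2.11), Hfe (-1.498), H2-M3 (-1.44), H2-K2 (-1.14) and H2-T23 (-0.90) fell, and Mr1, which presents vitamin metabolites, rose by 0.75. H2-K2 and H2-T23 are among the near copies of both H2-K1 and H2-D1. Their reads may therefore be shared with those genes, and their falls are not separate observations with certainty. With ruxolitinib 7 of the 9 were lower without overlap, beside 20.1% of all genes. None was higher without overlap, beside 24.6% of all genes, and 1 had a positive difference.

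Of the 14 constitutive proteasome core subunits, 7 rose with CHZ868 and none fell, with a median of +0.25 log2 units, led by Psmb2 (+0.71), Psmb1 (+0.50) and Psma4 (+0.46). With quantile normalization 5 rose and 1 fell, and 5 rose without DMSO-treated replicate 1 or without the mean-variance trend, while 2 fell without CHZ868-treated replicate 1. With ruxolitinib 11 of the 14 had a negative difference (median -0.18), 6 were lower and 0 higher without overlap, beside 20.1% and 24.6% of all genes. None of Psmb5, Psmb6 and Psmb7, which the immunosubunits replace, passed (+0.27, -0.15 and +0.02; limma-trend adjusted p = 0.365, 0.347 and 0.867). Of 9 activators and assembly factors 2 fell, Psme2 (-0.75), part of the interferon-inducible PA28 cap, and Pomp (-0.36), a proteasome assembly chaperone, while Psme3 rose by 0.20. The share that fell is near the 26.4% of all genes. The count that fell was 1 without the mean-variance trend and 4 with quantile normalization, and the call of Psme3 was lost without the trend, with quantile normalization and without DMSO-treated replicate 1.

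Of 7 loading and trimming helpers, Tapbpl (-1.10), a tapasin relative, Erap1 (-0.39) and Lnpep (-0.36), both aminopeptidases, fell. The chaperones Calr (+0.88) and Pdia3 (+0.75) rose. These 2 also serve general folding in the endoplasmic reticulum.

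Of 17 measured transcription regulators of class I genes, 8 fell and 3 rose, beside 26.4% and 26.8% of all genes. Ciita, the class II relative of Nlrc5 (-3.35 log2 units), Irf1 (-2.40), Irf9 (-1.92) and Irf7 (-1.77) were among those that fell. Irf2 (+0.62), Nfyc (+0.70), a subunit of the factor that binds the Y box, and Rela (+0.42), an NF-kB subunit, rose. With ruxolitinib the differences of Ciita, Irf1, Irf9 and Irf7 were -3.06, -2.30, -1.93 and -2.39, all without overlap.

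Of 8 genes for interferon receptor chains, JAK kinases and Socs1, 5 rose and 3 fell with CHZ868, beside 26.8% and 26.4% of all genes. The 3 that fell were 1 without DMSO-treated replicate 2 and 2 without the mean-variance trend. Socs1, an inhibitor of JAK kinases, fell by 5.20 log2 units, and Ifngr1 (+0.48), Ifnar1 (+0.40) and Ifngr2 (+0.38) rose. Of 9 measured MHC class II genes, 4 fell, by 0.39 (H2-Ab1) to 0.67 (H2-DMb1) log2 units, and H2-Oa rose by 1.16, again beside 26.4% and 26.8% of all genes. The invariant chain Cd74 was at -0.01 (adjusted p = 0.864, limma-trend). After CHZ868 washout Cd74 (-0.40, adjusted p = 0.0372) and H2-Ab1 (-0.51, adjusted p = 0.0329) were called lower by limma-trend. Of the other lists, 2 regulators were called lower (Rela -0.49 and Nfyc -0.52), as was Pdia3 (-0.42), and Lnpep was called higher (+0.55). These washout calls, beside 4.02% of all genes, were not stable. Without the mean-variance trend, CHZ868-wash replicate 1 or 3, or replicate 1 of its DMSO-wash, 0 genes of the table were called. Over all genes 1298 were called without replicate 2 of its DMSO-wash and 1426 without replicate 3. Whether the genes named here were among them is not reported here. After ruxolitinib washout no gene of these lists was called.

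Over the 21 libraries, each value taken as the difference from the mean of its DMSO group, the genes outside the pathway whose pattern was most like the mean of the 10 were Nxn (Pearson r = 0.989), Vasp (0.982), Gart (0.980), G3bp1 (0.980) and Rrp9 (0.976), among 9973 genes. Within the pathway each gene is itself part of that mean, which raises its correlation. Tapbp followed that mean most closely (0.98), while H2-K1 (-0.69) and B2m (-0.88) ran against it. The group differences given above are part of these patterns. Across the same libraries Psmb9 and H2-D1 had r = 0.97, and B2m and Tap1 r = -0.97. These values describe 21 libraries that share DMSO means within each experiment, and both libraries that stood apart are among them.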

How the data were processed

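RNA was sequenced from 21 libraries of Ba/F3 JAK2-V617F cells, 3 in each of 7 groups. The study's methods name kallisto pseudo-alignment to GRCm38 transcripts, sums per gene through biomaRt, removal of genes with low CPM and TMM scaling in edgeR, whereas the submitters' processing notes name STAR 2.7.3a, edgeR 4.0.16 and GRCm39; which of these made the tables is not given in the sources used here. The deposited values are log2 CPM, to which the authors added a small constant, in 4 tables normalized separately, so levels in different tables are not comparable.

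Groups and replicate numbers were taken from the labels, and every column was assigned. Comparisons within a table were fitted with limma-trend (limma 3.58.1, R 4.3.3) on the deposited log2 values over all genes, with Benjamini-Hochberg adjustment and a threshold of 0.05. Differences between effects were fitted as contrasts over 12 libraries. Ruxolitinib-treated libraries were centred on the median of shared genes and compared without a test. Ratios were compared by exact permutation tests. Fits were tested on artificial data. Reads were recovered as whole multiples, within 0.1 reads, after the constant was removed, for 15 libraries. Transcripts were compared by blastn 2.17.0+, and promoters came from RefSeq.

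Every member is named. From other lists at most 5 genes with the largest difference in CHZ868-treated cells are named, with those that passed in the opposite direction. Some listed genes are counted but not reported by name here. The members and lists were chosen with earlier results of these data known. Alternatives were no mean-variance trend, robust empirical Bayes, other scalings, pseudocounts, low-value filters, a replicate block and leaving out each library; library weights per experiment were added after seeing the data. Numbers shared between groups were not shown to pair the libraries. Deviations of libraries with the same number correlated between -0.05 and 0.05, and those with different numbers between -0.087 and 0.087. With 3 libraries a group this cannot exclude a pairing.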

Additional observations from a re-analysis of the deposited data

Results flagged for a closer look

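The effect of 6 h of CHZ868 and the effect after CHZ868 washout differed for every one of the 10 genes when the difference itself was tested over 12 libraries (limma-trend, Benjamini-Hochberg adjustment over 11175 genes). The differences, continuous minus washout, were -2.43 log2 units for Nlrc5, -1.496 for H2-D1, -1.33 for Psmb9, -1.17 for Psmb10, -1.15 for Tapbp, -0.97 for Tap2, -0.94 for Tap1 and -0.31 for Psmb8, and they were 1.01 for H2-K1 and 1.63 for B2m. Across all genes 23.2% were called as more positive and 23.8% as more negative. The effects come from separate experiments that differ in exposure, 6 h against 1 h. When replicate 3 of DMSO-wash in the CHZ868 experiment was left out, those of Nlrc5, H2-D1, Psmb9 and B2m were -2.39, -1.25, -1.05 and 1.46. Psmb8 was then no longer called (limma-trend adjusted p = 0.0595), as in most fits that left out 1 library.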

How the results depend on the processing

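With CHZ868 treatment all 10 genes were called in the same direction under every alternative run. The replicate block was fitted although the numbers were not shown to pair the libraries: with it 1 of the 10 genes, H2-D1 (adjusted p = 0.0408), was called in CHZ868-wash against DMSO-wash, 10 in CHZ868-treated cells and 0 in ruxo-wash, and over all genes the calls went from 191 to 6 for the difference between washout effects and from 3 to 0 in ruxo-wash. Leaving out each library in turn gave 0 to 3 called members in CHZ868-wash, 0 to 2 for the difference between washout effects, and 0 to 1 past 1 log2 unit for ruxolitinib-treated against CHZ868-treated cells (1 without ruxolitinib-treated replicate 2 or CHZ868-treated replicate 3). Over all genes the CHZ868-wash calls, 457, ran from 0 to 1426 without 1 library and were 0 without the mean-variance trend; those in ruxo-wash were 0 to 1 without 1 library, 9 without the trend and 5 with robust empirical Bayes; those for the difference between washout effects were 5 to 628 without 1 library and 14 without the trend. With log2(CPM + 5) the genes past 1 log2 unit fell from 363 to 171 for ruxolitinib-treated against DMSO-treated and from 173 to 38 for ruxolitinib-treated against CHZ868-treated cells, and with log2(CPM + 1) the latter were 100; without ruxolitinib-treated replicate 2 they were 403, and without CHZ868-treated replicate 3 they were 315.

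Among the 10 genes, those that changed sign under an alternative were not called with all libraries. With all libraries kept, Psmb10 in ruxolitinib-treated against CHZ868-treated cells went from -0.05 to 0.0058 with upper quartile scaling. The other changes came from leaving out 1 library. For that comparison the ranges were -0.19 to 0.20 for Psmb10 and -0.016 to 0.12 for Psmb8. In CHZ868-wash the ranges were -0.060 to 0.19 for Tap2, -0.17 to 0.034 for Tapbp and -0.29 to 0.12 for Psmb10. In ruxo-wash they were -0.078 to 0.14 for H2-K1, -0.0064 to 0.097 for H2-D1, -0.0098 to 0.034 for Tap1, -0.091 to 0.0098 for Tap2, -0.0081 to 0.093 for Tapbp, -0.0080 to 0.085 for Psmb10 and -0.11 to 0.070 for Nlrc5. For the difference between washout effects they were -0.18 to 0.0062 for Tap1, -0.22 to 0.034 for Tap2 and -0.076 to 0.33 for Psmb10. Psmb8 in the continuous against washout contrast had an adjusted p of 0.0792 without the trend, 0.0637 with median centring and 0.0561 with the block. The cause of these changes was not tested. With 3 libraries a group, small washout effects are limited by the spread of the DMSO-wash libraries, and the depth of the ruxolitinib washout libraries is unknown.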

Other observations

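Within the CHZ868 washout experiment the ratio of H2-D1 to H2-K1 was 0.98 log2 units higher in CHZ868-wash than in DMSO-wash libraries without overlap (two-sided exact permutation p = 0.1, the smallest that 3 against 3 can give), and 0.79 higher without DMSO-wash replicate 3. After ruxolitinib washout the same ratio differed by 0.03 log2 units and the groups overlapped. The ratio of H2-K1 to B2m in ruxolitinib-treated cells differed from that in DMSO-treated cells by -0.16 log2 units, and by 0.0060 without ruxolitinib-treated replicate 2. These ratios were chosen after the values were seen.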
